A study of Mus musculus with 24 samples.

Results

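The 10 genes described here are the core of the mammalian circadian clock and its first output, namely Arntl (also called Bmal1), Clock, Per1, Per2, Per3, Cry1, Cry2, Nr1d1, Nr1d2 and Dbp. They were taken by symbol from the 41549 genes of the mouse islet table, all 10 were found, and all 10 passed the filter on low counts. The circadian clock is a transcriptional feedback loop present in most cells, islet cells included. ARNTL and CLOCK bind E-boxes as a dimer and switch on the Per and Cry genes, whose proteins accumulate and repress that dimer. The same dimer drives Nr1d1 and Nr1d2, which encode the receptors REV-ERBα and REV-ERBβ and repress Arntl, and it drives Dbp, a transcription factor whose mRNA swings widely over the day. In the pancreatic islet this clock is known for the daily rhythm of insulin secretion.

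The study asked what blockade of a fragment of transfer RNA, 5’tRFGlu(CTC), does to islet cells under lipid load. Dispersed islet cells of wild-type mice were transfected with 50 pmol of an antisense oligonucleotide (ASO), either the control (Ctr) or the one against the fragment (αGlu). They were then kept for 48 h with 0.5 mM palmitate (PA), a saturated fatty acid carried by albumin, or with 0.75% bovine serum albumin (BSA) alone. Stranded mRNA libraries were sequenced from 24 samples, 6 for every pairing of ASO and medium, named by both (Ctr PA is control ASO with palmitate). Every group therefore went through dispersion, transfection and culture, and no untransfected or freshly isolated cells were analysed here. The cells came from C57BL/6NRj mice of 12 to 14 weeks, male and female, and the medium held 1% serum during the exposure. The labels place 3 libraries of each group (S1 to S12) in batch 1 and 3 (S13 to S24) in batch 2 without saying what a batch is. Each library is a single harvest, and its hour is not given in the sources used here, so these values are levels at 1 time and say nothing of amplitude or phase. The study describes the libraries of a group as independent experiments and takes the groups of a replicate from cells of 1 animal or passage, but the labels do not tie libraries to animals, so libraries of different groups were treated as separate samples.

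Counts of reads on exons summed to between 18214719 and 35001979 per library, and the 10 genes held between 0.0609% and 0.106% of them. The median rank correlation of a library with the others ran from 0.972 to 0.985. Library S23 (Ctr PA) had the highest mitochondrial share, 8.83% of counts against 3.52% to 6.03% in the other 23, and Clock results are therefore also given without it. Cpt1a, the gatekeeper of mitochondrial fatty acid oxidation, served as a check of the PA labels and was higher with PA in Ctr cells, at a log2 fold change of 2.18 ± 0.0803 (SE). All 8 beta-cell markers were detected in every group, and together they held between 82756 and 149826 CPM (counts scaled to library size). Acinar, ductal, macrophage, endothelial, fibroblast and glial markers were detected as well, none of them at 0 in a whole group, so the RNA is that of mixed islet cells. In such bulk RNA, fewer cells of a type and less RNA per cell cannot be told apart.

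The αGlu ASO and the stretch of the transfer RNA fragment it pairs with are shown because they define the αGlu groups, the first being the complement of the second over its 20 bases.
αGlu ASO: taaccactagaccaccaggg
Target: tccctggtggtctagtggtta

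Promoter sequence was read from RefSeq windows (GRCm38.p6) that start 250 bases before an annotated start site. Such windows were given for 9 of the 10 genes, 13 windows in all, and for Per2 none was given. The bases before the start were searched on both strands for the E-box CACGTG and the related CACGTT, which ARNTL and CLOCK bind, for the D-box TTATGTAA bound by DBP, and for AGGTCA, the core of ROR and REV-ERB receptor sites. The 6 stretches of 100 bases below carry these matches in capitals, read 5′ to 3′ on the strand of the gene, and none overlaps an annotated exon. CACGTT read on the other strand appears as AACGTG, and AGGTCA as TGACCT. The E-box stood in 1 of the windows of Per1 (chr11:69098736-69098835, plus strand) and in Cry1 (chr10:85185075-85185174, minus strand), and Cry1 held both forms. The other window of Per1 held none of these letters.
Per1: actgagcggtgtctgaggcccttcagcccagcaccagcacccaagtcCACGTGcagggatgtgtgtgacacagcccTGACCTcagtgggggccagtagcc
Cry1: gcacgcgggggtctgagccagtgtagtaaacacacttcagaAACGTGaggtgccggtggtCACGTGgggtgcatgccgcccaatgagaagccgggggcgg
CACGTT was found in Nr1d1 (chr11:98775398-98775497, minus strand), 28 bases before the start, and in Cry2 (chr2:92434183-92434282, minus strand).
Nr1d1: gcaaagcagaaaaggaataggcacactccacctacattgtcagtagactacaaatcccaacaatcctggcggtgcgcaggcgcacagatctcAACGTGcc
Cry2: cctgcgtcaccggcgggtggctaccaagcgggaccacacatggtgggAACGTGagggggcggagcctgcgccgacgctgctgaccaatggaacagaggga
The D-box occurred 2 times in Per3 (chr4:151044794-151044893, minus strand), and AGGTCA in Nr1d2 (chr14:18239131-18239230, minus strand).
Per3: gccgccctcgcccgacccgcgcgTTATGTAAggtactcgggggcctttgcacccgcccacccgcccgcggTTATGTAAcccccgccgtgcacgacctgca
Nr1d2: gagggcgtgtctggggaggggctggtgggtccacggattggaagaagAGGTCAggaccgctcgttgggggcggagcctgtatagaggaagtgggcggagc
Of all 32851 windows, 6.02% held CACGTG, 3.85% CACGTT, 0.819% TTATGTAA and 14.02% AGGTCA. A match is a description of the sequence, and no match in Arntl or Dbp says only that these letters are absent from that window. AGGTCA also occurred in 1 of the windows of Clock.

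Levels of different genes were compared per transcript length, as the deposited TPM, a read count scaled to transcript length and library. Over the 24 libraries the order of mean TPM was Cry2, Nr1d1, Per1, Nr1d2, Per2, Clock, Cry1, Dbp, Arntl and Per3. Cry2 led with 60.9 ± 12.9 TPM (SD, n = 24) and Per3 closed the order with 9.63 ± 2.42 TPM. The first 5 genes lay close together. Behind Cry2 came Nr1d1 at 53.4 ± 19.3 TPM, Per1 at 52.1 ± 14.6 TPM, Nr1d2 and Per2, and each exceeded the next in only 11 to 13 of 24 libraries, so their order was within the spread. Clock followed with 37.5 ± 5.14 TPM and exceeded Cry1, at 18.3 ± 2.30 TPM, in 24 of 24 libraries. With PA the mean of Clock was above that of Per2, at 38.8 against 34.4 TPM in Ctr PA and 37.3 against 35.1 TPM in αGlu PA. The gap between Arntl (10.5 ± 1.61 TPM) and Per3 was smaller than the spread over all libraries, although Arntl was the higher in 17 of 24. In Ctr BSA alone, where neither treatment applied, Cry2, Nr1d1, Per2 and Per1 had means from 62.3 to 65.6 TPM. There the mean of Dbp (20.7 ± 8.31 TPM, SD, n = 6) stood before that of Cry1 (16.96 ± 2.70 TPM). Dbp was the higher in only 3 of 6 libraries, so this order was within the spread. All 10 genes lay above the 66th percentile of mean TPM among genes with any count, and Cry2 reached the 93rd.

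**Figure D1:**
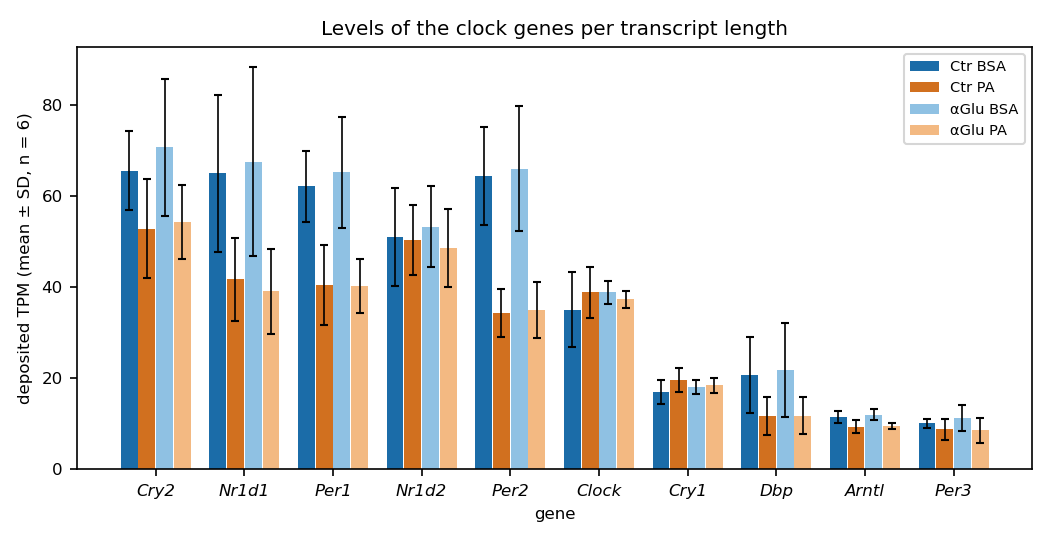
Deposited TPM of the 10 clock genes (y axis) in the 4 groups (bars, mean of 6 libraries; whiskers, SD), ordered along the x axis by the mean over all 24 libraries. By the mean over all 24 libraries, Cry2, Nr1d1, Per1, Nr1d2 and Per2 formed an upper set around 50 to 61 TPM. Cry1, Dbp, Arntl and Per3 formed a lower set under 19 TPM on that mean. In both PA groups the mean of Per2 was below that of Clock.

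PA lowered most of the clock genes in Ctr cells. With a quasi-likelihood test on counts (edgeR, Benjamini-Hochberg adjustment over 15916 genes), 6 of the 10 fell at an adjusted p below 0.05, where 14.5% of all genes tested were lower, and 0 rose, where 15.5% of all genes tested were higher. The 6 were Per2, Dbp, Per1, Nr1d1, Cry2 and Arntl. The median log2 fold change of the 10 genes was -0.37, and that of all genes tested was 0.01. The 10 genes were chosen with earlier results of these data known, so these shares are descriptions only. None of the 10 passed the threshold of the study, more than 2-fold at an unadjusted p under 0.05, which 5.91% of all genes passed. Values below are CPM scaled by TMM, given as the lowest, median and highest of 6 libraries, and fold changes come from the fit with batch as a term.

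Arntl encodes the partner of CLOCK and is the member without which the loop stops. It had 30.5, 31.6 and 33.7 CPM in Ctr BSA and 21.2, 24.8 and 27.9 CPM in Ctr PA. Every Ctr PA library was below every Ctr BSA library. The log2 fold change was -0.35 ± 0.0669 (SE), with an adjusted p of 0.000344 (edgeR). Clock encodes the partner of ARNTL, a protein with histone acetyltransferase activity. Clock had 127, 176 and 217 CPM in Ctr BSA and 165, 179 and 270 CPM in Ctr PA. The groups overlapped, and both extremes came from single libraries, S1 at the low end of Ctr BSA and S23 at the high end of Ctr PA. Its log2 fold change was 0.12 (95% interval -0.05 to 0.28), and 0.03 without S23. Of the activator pair, Arntl was thus lower with PA and Clock was not called, and no test between genes was run.

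The Per genes encode the repressors that pair with CRY proteins. Per2 had 116, 145 and 159 CPM in Ctr BSA and 63.0, 71.1 and 84.6 CPM in Ctr PA. These groups were separate, and the log2 fold change of -0.97 ± 0.0650 (adjusted p = 1.57e-10, edgeR) left 0.511 of the Ctr BSA level, the largest fall among the 10. Per1, which also responds quickly to hormones and cAMP, had 107, 130 and 154 CPM in Ctr BSA and 66.9, 77.7 and 107 CPM in Ctr PA. Only the highest Ctr PA library, S11, reached the range of Ctr BSA. The fall in Per1 was -0.70 ± 0.0699 on the log2 scale (adjusted p = 1.03e-07, edgeR). Per3, the member least needed for rhythms, had 32.9, 36.5 and 39.9 CPM in Ctr BSA and 21.98, 28.0 and 38.2 CPM in Ctr PA. Its libraries overlapped, and the log2 fold change of -0.29 ± 0.113 missed the threshold (adjusted p = 0.0539, edgeR).

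The Cry genes encode the repressors that act on the ARNTL:CLOCK dimer directly. Cry2 had 133, 152 and 177 CPM in Ctr BSA and 103, 110 and 154 CPM in Ctr PA. The ranges overlapped, since S11 of Ctr PA stood well above the other 5. The log2 fold change of Cry2 was -0.38 ± 0.0737 (adjusted p = 0.000347, edgeR). Cry1 had 19.3, 21.2 and 22.4 CPM in Ctr BSA and 21.3, 22.7 and 27.7 CPM in Ctr PA. Its fitted change was 0.15 ± 0.0675, on the other side of 0 from Cry2, and it did not pass (adjusted p = 0.0931, edgeR). Without S3, the highest library, the change of Cry1 was 0.10.

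Nr1d1 and Nr1d2 encode paired haem-binding repressors of Arntl. Nr1d1 had 48.8, 73.3 and 111 CPM in Ctr BSA and 35.9, 46.5 and 56.3 CPM in Ctr PA. The overlap was between batches, as Ctr BSA of batch 1 lay between 84.99 and 111 CPM and that of batch 2 between 48.8 and 61.6 CPM. Within each batch every Ctr PA library was below every Ctr BSA library, and the log2 fold change was -0.70 ± 0.0855 (adjusted p = 1.75e-06, edgeR). Nr1d2 had 84.9, 103 and 118 CPM in Ctr BSA and 79.2, 96.8 and 112 CPM in Ctr PA. Its groups overlapped over nearly their whole range, with a log2 fold change of -0.07 (95% interval -0.24 to 0.11). That value was -0.14 without S23 and -0.13 without S1, and it did not pass in either.

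Dbp, the output gene, had 13.1, 24.4 and 32.4 CPM in Ctr BSA and 7.98, 12.2 and 16.4 CPM in Ctr PA. Its 6 Ctr BSA libraries formed separate sets by batch, from 30.4 to 32.4 CPM in batch 1 and from 13.1 to 18.3 CPM in batch 2. The corresponding Ctr PA libraries held 14.7 to 16.4 CPM and 7.98 to 9.65 CPM. Dbp with PA was thus lower in both batches, at a log2 fold change of -0.88 ± 0.123 (adjusted p = 8.67e-06, edgeR).

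**Figure D2:**
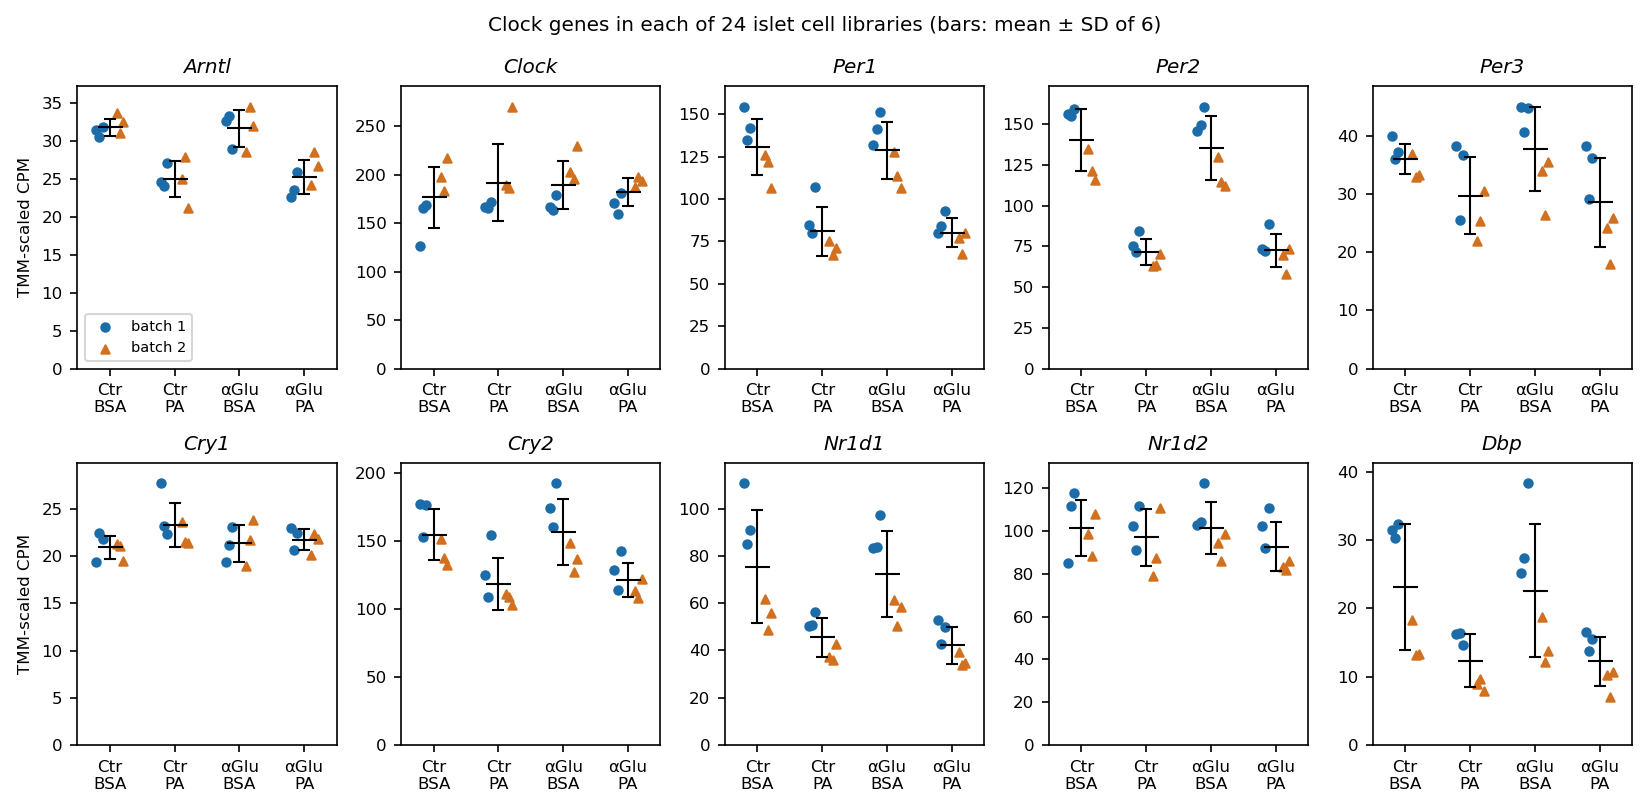
TMM-scaled CPM (y axis, from 0) of each clock gene in the 24 libraries by group (x axis), with circles for batch 1, triangles for batch 2 and bars for the mean and SD of 6 libraries. Arntl and Per2 were separate between BSA and PA in both ASO groups, while in Nr1d1 and Dbp the batch 1 libraries stood above those of batch 2.

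In αGlu cells, 7 of the 10 genes were lower with PA (adjusted p below 0.05, edgeR), against 14.2% of all genes tested, and 0 were higher, against 14.4%. Again 0 of 10 passed the fold threshold of the study, which 5.57% of all genes passed. The 7 were the 6 named for Ctr cells and Per3. Per2 had 112, 138 and 161 CPM in αGlu BSA and 57.7, 72.7 and 88.5 CPM in αGlu PA, a log2 fold change of -0.90 ± 0.0648. Dbp (-0.84 ± 0.123), Nr1d1 (-0.76 ± 0.0855) and Per1 (-0.68 ± 0.0698) followed. Cry2 and Arntl showed smaller falls, with log2 fold changes of -0.36 ± 0.0736 and -0.33 ± 0.0667. Per3 had 26.4, 38.1 and 44.97 CPM in αGlu BSA and 17.99, 27.5 and 38.3 CPM in αGlu PA. These groups overlapped. The fall in Per3 of -0.41 ± 0.113 (log2 scale) passed in αGlu cells (adjusted p = 0.00813, edgeR) and not in Ctr cells, and the test of the difference between both responses did not pass (-0.12, 95% interval -0.45 to 0.21). Clock (-0.05 ± 0.0806), Cry1 (0.03 ± 0.0674) and Nr1d2 (-0.13 ± 0.0845) did not pass.

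Separation between BSA and PA libraries was read without a model as well. Over both batches, 2 genes (Arntl and Per2) in Ctr cells were lower with PA with no overlap, where 2.86% of all genes were, and 3 genes (Arntl, Per1 and Per2) in αGlu cells, where 3.95% were. When libraries were set against those of the same batch, 5 genes in Ctr cells were lower with no overlap in either batch (6.25% of all genes), namely Arntl, Per1, Per2, Nr1d1 and Dbp. In αGlu cells 7 were (9.73% of all genes), with Per3 and Cry2 in addition. The PA response in batch 2 was then compared with that in batch 1, and 0 of the 10 differed at an adjusted p below 0.05, against 0.0565% of all genes. At an unadjusted p below 0.05 edgeR gave 1 of 10, against 6.18% of all genes, and DESeq2 1 of 10, which is near the background. In edgeR it was Nr1d1, with a difference over both ASOs of 0.27 (log2 scale, 95% interval 0.04 to 0.51, adjusted p = 0.694). In Ctr cells Nr1d1 had log2 fold changes of -0.86 in batch 1 and -0.52 in batch 2.

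Markers of other cells moved with PA too. Of 6 fibroblast and stellate cell markers, 5 were lower with PA in Ctr cells and 3 in αGlu cells, and 0 were higher in either. Their summed level ran from 67.2 to 416 CPM in Ctr BSA and from 6.89 to 42.5 CPM in Ctr PA, with no marker at 0 in either group. Among macrophage markers, 4 of 6 were lower in Ctr cells and 1 of 6 in αGlu cells, with sums of 76.5 to 342 CPM in Ctr BSA and 83.7 to 127 CPM in Ctr PA. Acinar markers were lower in 3 of 5 with PA in Ctr cells, their sums running from 338 to 15843 CPM in Ctr BSA and from 175 to 6963 CPM in Ctr PA. Of the 8 beta-cell markers 2 were higher and 3 lower, and their sum ran from 86399 to 133037 CPM in Ctr BSA and from 82930 to 129815 CPM in Ctr PA. Ductal markers were lower in 2 of 4 and those of other endocrine cells in 2 of 6, with 0 higher in either, and 0 of 5 endothelial and 0 of 4 Schwann and glial markers passed in Ctr cells. The part of these cells in the lower clock gene levels was not tested.

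No difference of the clock genes between αGlu and Ctr cells was detectable in these libraries. In BSA, 0 of the 10 differed between αGlu and Ctr cells (edgeR, adjusted p below 0.05, with 0% of all genes called). At an unadjusted p below 0.05, 0 passed in edgeR or in DESeq2, where 470 of 15916 genes passed in DESeq2. The same edgeR counts, 0 of 10 and 0% of all genes, held in PA and for the difference between both PA responses. Again 0 of 10 passed an unadjusted p below 0.05 in edgeR and in DESeq2. In DESeq2, 566 of the 15916 genes passed in PA and 340 for the difference, so 0 of 10 is near these shares. Per2 had a log2 fold change for αGlu against Ctr of -0.05 in BSA (95% interval -0.19 to 0.08) and 0.02 in PA (-0.11 to 0.15). The intervals were widest for Dbp, from -0.28 to 0.22 in BSA and from -0.25 to 0.27 in PA. The difference between the PA responses of Dbp was 0.04 (95% interval -0.32 to 0.39). That of Per2 was 0.07 (95% interval -0.11 to 0.26). A p that misses the threshold does not show that the groups were alike, and effects within these bounds were not resolved.

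**Figure D3:**
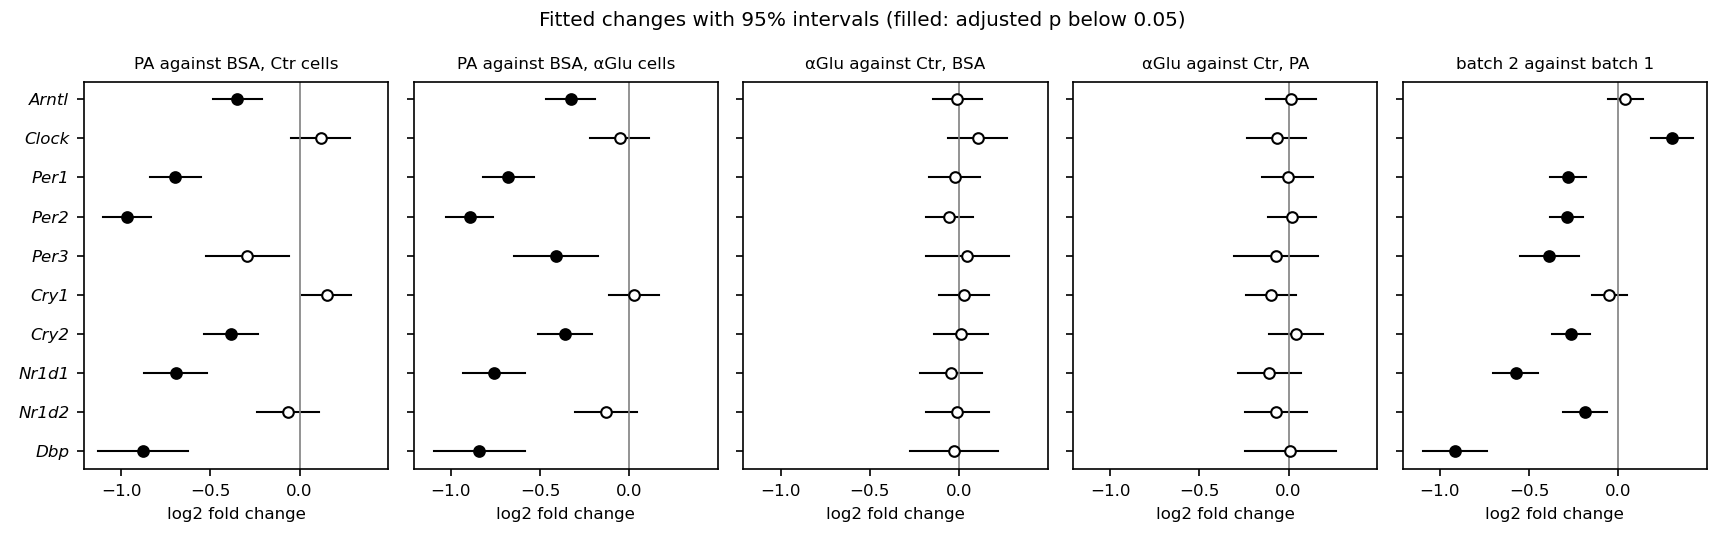
Log2 fold changes (x axis) of the 10 clock genes (y axis) in 5 comparisons, with 95% intervals as lines and filled points for an adjusted p below 0.05. Both PA panels hold 6 and 7 filled points, all left of 0, the αGlu panels hold none, and the batch panel holds 7 to the left and Clock to the right.

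The clock genes differed between batches that held the same groups. In batch 2, 7 of the 10 were lower (adjusted p below 0.05, edgeR), where 25.4% of all genes were, and 1 was higher, where 26.1% of all genes were. By the fold threshold of the study 0 of 10 passed, against 6.38% of all genes. Dbp ranged from 13.8 to 38.3 CPM in the 12 libraries of batch 1 (median 20.8) and from 7.10 to 18.7 CPM in batch 2 (median 11.4), a log2 difference of -0.91 ± 0.0869. Nr1d1 followed with -0.58 ± 0.0604, Per3 with -0.39 ± 0.0803, Per2 with -0.29 ± 0.0456, Per1 with -0.28 ± 0.0492, Cry2 with -0.26 ± 0.0521 and Nr1d2 with -0.19 ± 0.0598. In value the batch difference of Dbp was close to its PA response, and those of Clock, Per3 and Nr1d2 exceeded their PA responses in Ctr cells, which was not tested. Clock was the gene that was higher, with 127 to 181 CPM in batch 1 and 183 to 270 CPM in batch 2. These 24 values did not overlap between batches, as in 3.23% of all genes, and the log2 difference was 0.30 ± 0.0571 (0.26 without S23). Arntl (0.04, 95% interval -0.06 to 0.14) and Cry1 (-0.05, 95% interval -0.15 to 0.05) did not pass.

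Cell type markers differed between batches as well. All 5 acinar markers were lower in batch 2, with sums of 2481 to 15843 CPM in batch 1 and 175 to 506 CPM in batch 2. All 8 beta-cell markers were higher in batch 2, with sums of 82756 to 132894 CPM in batch 1 and 108382 to 149826 CPM in batch 2. Of the other endocrine markers 4 of 6 were lower and 1 higher, of the endothelial ones 3 of 5 were lower, and of the ductal ones 2 of 4 were lower and 1 higher. Of the macrophage markers 1 of 6 was higher, of the Schwann and glial ones 1 of 4 was higher, and 0 of 6 fibroblast and stellate markers passed. No acinar or beta-cell marker was at 0. Whether the harvest hour, the cell make-up or another feature of a batch went with the clock gene levels was not tested.

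A wider list of 30 clock-related genes, drawn up by role with earlier results of these data known, was read in the same fit. With PA in Ctr cells 8 of the 30 were lower and 4 higher at an adjusted p below 0.05, and with PA in αGlu cells the same 8 and 4. Of these, 3 of the 8 lower and 2 of the 4 higher were genes that hormones, cAMP or serum induce. The share lower was 26.7% of the list in both, against 14.5% and 14.2% of all genes tested. Because of how the list was chosen, this share is a description only. The share higher, 13.3%, was no larger than that of all genes tested, 15.5% and 14.4%, and the counts by role are too small to set against these shares. Their median log2 fold change was -0.05 in Ctr and -0.07 in αGlu cells. Between αGlu and Ctr cells 0 of the 30 differed at that threshold in edgeR, in BSA or in PA. DESeq2 gave 0 in both as well. At an unadjusted p below 0.05 the counts were 0 in BSA and 1 in PA (3.38% of all genes) with either tool, the latter in edgeR being Arntl2, at -0.34 (95% interval -0.63 to -0.06, adjusted p = 0.993). Among 6 paralogs and partners, Ciart, a repressor of ARNTL:CLOCK, fell with PA in Ctr cells by 0.62 ± 0.137 on the log2 scale and Bhlhe40, which competes for E-boxes, by 0.48 ± 0.136. Ciart in Ctr cells had a log2 fold change of -0.94 in batch 1 and of -0.25 in batch 2, where it did not pass (adjusted p = 0.300, edgeR), and the difference between batches over both ASOs was 0.62 (95% interval 0.31 to 0.93, adjusted p = 0.202, edgeR). DESeq2 called this difference, the 1 of the 30 it called, where it called 43 of 15916 genes. Bhlhe40 had -0.56 and -0.38 and passed in neither batch of Ctr cells by itself. Npas2, Arntl2, Cipc and Bhlhe41 did not pass with PA in Ctr or αGlu cells. Of the ROR receptors, which activate Arntl through sites that REV-ERB receptors also bind, Rora rose. It had 69.9, 79.6 and 85.5 CPM in Ctr BSA and 96.6, 101 and 139 CPM in Ctr PA, a log2 fold change of 0.45 ± 0.0731 (adjusted p = 5.19e-05, edgeR). The highest Ctr PA value of Rora was in S23. In αGlu cells Rora rose by 0.31 ± 0.0730 on the log2 scale. The groups overlapped there, with up to 86.8 CPM in αGlu BSA and down to 85.9 CPM in αGlu PA.

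Tef, a bZIP relative of Dbp that binds the D-box, fell by 0.51 ± 0.0692 in Ctr cells, while Hlf and the opposing repressor Nfil3 did not pass. Of 8 kinases and ubiquitin ligases that set the stability of PER and CRY proteins, Csnk1e alone passed with PA (-0.33 ± 0.0578 in Ctr and -0.30 ± 0.0577 in αGlu cells). Among 4 output genes, Nampt, the rate-limiting enzyme of NAD salvage, rose by 0.37 ± 0.0632 and Noct, a phosphatase acting on NADPH, fell by 0.60 ± 0.0631 in Ctr cells. Wee1 and Usp2 did not pass. The 6 genes that hormones, cAMP or serum induce split both ways. The orphan receptor Nr4a1 (-0.84 ± 0.115), the kinase Sik1 (-0.50 ± 0.0700) and the kinase Sgk1 (-0.36 ± 0.102) were lower in Ctr PA. Sgk1 had -0.54 in batch 1 and -0.19 in batch 2. Its highest Ctr PA value, 58.8 CPM, was in S23 of batch 2, against a median of 36.3 CPM in Ctr PA. Fkbp5, a co-chaperone of the glucocorticoid receptor and its target, was higher by 0.48 ± 0.0615 and Crem by 0.31 ± 0.0742, Crem with 0.41 in batch 1 and 0.21 in batch 2. Tsc22d3 did not pass. Sgk1 and Fkbp5, both known targets of the glucocorticoid receptor, had changes of opposite sign with PA. A part of that receptor was not tested.

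Between batches, 7 of the 30 genes of the wider list were lower in batch 2 and 5 higher (adjusted p below 0.05, edgeR). These were 23.3% and 16.7% of the list, against 25.4% and 26.1% of all genes tested, so neither share exceeded the background. Bhlhe40 (-1.08 ± 0.0968), Ciart (-0.65 ± 0.0971), Wee1 (-0.59 ± 0.0817), Csnk1e (-0.57 ± 0.0409) and Tef (-0.39 ± 0.0489) were among the 7 lower in batch 2. Nr4a1 (0.62 ± 0.0810), Crem (0.61 ± 0.0526), Fbxl21 (0.34 ± 0.119), Nampt (0.12 ± 0.0446) and Btrc (0.09 ± 0.0312) were higher. Noct, lower with PA, did not differ between batches, and Bhlhe40 had 35.8 to 92.8 CPM in batch 1 and 21.4 to 41.1 CPM in batch 2.

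**Figure D4:**
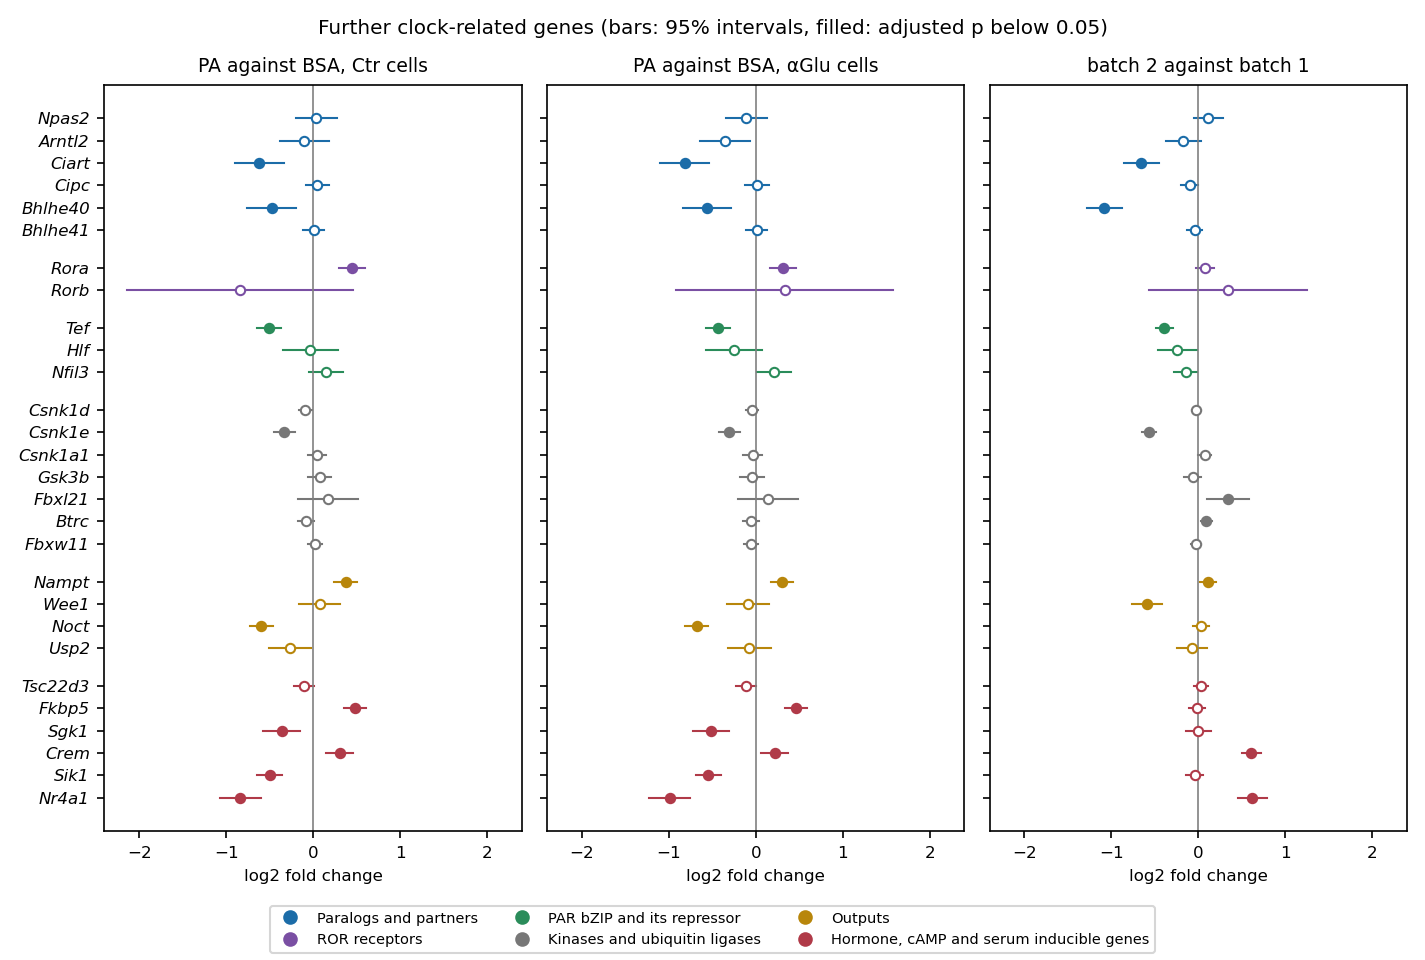
Log2 fold changes (x axis) of further clock-related genes of the wider list (y axis, coloured by role) with PA in Ctr cells, with PA in αGlu cells and between batches, with 95% intervals as lines and filled points for an adjusted p below 0.05. Rora, Nampt, Fkbp5 and Crem lie to the right of 0 in both PA panels, and Bhlhe40 is the farthest from 0 between batches.

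To see which clock genes moved together apart from treatment and batch, the mean of each of the 8 combinations of group and batch was removed from log2 CPM, and the residuals of the 24 libraries were correlated. With 8 means removed, the 24 points hold 16 degrees of freedom, and they share library depth and composition. They may share animals too, so r and rho are given as descriptions with no p. Of 45 pairs computed, 11 had an r above 0.5. The share of all gene pairs with such an r was not computed, so this count has no background beside it. Per1 and Per2 had r = 0.80 and rho = 0.83, and r = 0.77 without S7 and S11, the libraries farthest out. Per1 and Cry2 had r = 0.78 and rho = 0.73, and r = 0.66 without S7 and S11. Clock and Nr1d2 gave the highest value, r = 0.90 and rho = 0.88, and r = 0.85 without S1 and S23. Arntl had a negative r with 7 of the other 9 genes. Its r with Nr1d1, encoding its repressor, was -0.37, as was rho, and r was -0.25 without S19 and S23.

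**Figure D5:**
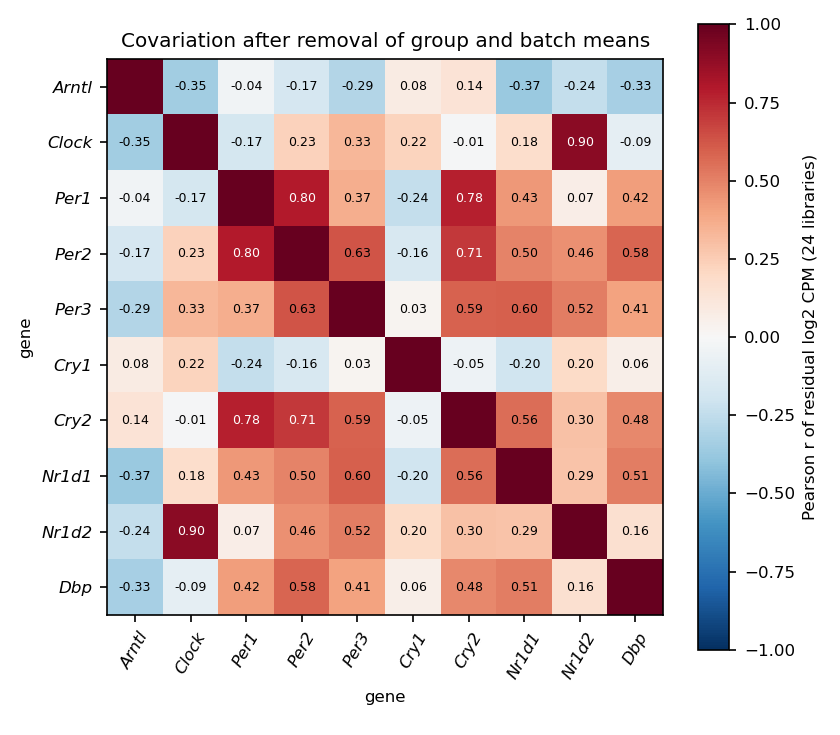
Pearson r (colour and number) between the 10 clock genes (both axes) over 24 libraries after removal of the means of group and batch. Per1, Per2 and Cry2 form a block of 0.71 to 0.80, Clock and Nr1d2 share 0.90, and the row of Arntl is pale or blue.

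Among 15317 genes with a mean of at least 10 counts, those most like each clock gene in these residuals were mostly not clock genes. Usp9x (r = 0.98), Atp11b and Stag2 (both 0.97) were most like Clock, with Nr1d2 at place 254. Atm and Ralgapb (both r = 0.96) and Dennd4c (0.95) were most like Nr1d2. Fhdc1 (r = 0.92), Atxn2l and Mnt (both 0.91) were most like Per1, with Per2 at place 28. Bicra (r = 0.93), Crebbp and Nav2 (both 0.88) were most like Per2, with Per1 at place 23. Carmil3, Dnmt3a and Casz1 (0.91 to 0.92) were most like Cry2, and Gm12299, Npnt and Rere (0.87 to 0.88) most like Per3. The values were lower for the other genes, with Gm16565, Rpa1 and Tmem229b (0.82 to 0.83) for Nr1d1, Notch1, Ddx55 and Myo10 (0.75 to 0.77) for Dbp, Mrps9, Ccdc113 and Spata5 (0.74 to 0.83) for Arntl, and Rabep1, Atg2b and Amer3 (0.69 to 0.72) for Cry1. These are descriptions over 24 libraries that share depth and composition.

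Some clock genes share exon sequence with a gene on the opposite strand (GENCODE M21, GRCm38), and the sources used here do not say whether reads were counted by strand. Nr1d1 (chr11:98767932-98775333, minus strand) overlaps Thra at its 3′ end and shares 263 of its 3077 exonic bases with it. Thra, a thyroid hormone receptor, had a log2 fold change with PA of -0.24 ± 0.0748 in Ctr cells (adjusted p = 0.0162, edgeR), smaller than that of Nr1d1, and of -0.40 ± 0.0528 between batches. Dbp (chr7:45705088-45710203, plus strand) shares 539 of its 2993 exonic bases with Sphk2, a sphingosine kinase, which did not pass with PA in Ctr cells (-0.06 ± 0.0813) or between batches (0.10 ± 0.0574). Cry2 shares 295 exonic bases with D930015M05Rik and Arntl 33 with Gm45355. The other 6 genes share no exonic base with a neighbour, Per3 lying within Camta1 on the same strand.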

How the data were processed

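Poly(A) RNA of 24 dispersed mouse islet cell samples was sequenced from stranded libraries. Per the labels, the authors used version 5.1 of QIAGEN's RNA-seq Analysis Portal and GRCm38, with aligner and filters not given in the sources used here. Each library is deposited with a count of reads on exons, an RPKM, a TPM and a CPM per gene, and that CPM was not used. Empty cells were read as 0, and 1 line without a gene (0 counts) was left out. The deposited TPM served for levels between genes, and the deposited RPKM as its alternative.

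Counts were filtered with filterByExpr (edgeR 4.0.16, minimum count 10), which left 15916 genes with 99.95% of the counts, scaled by TMM (factors 0.853 to 1.06) and fitted by quasi-likelihood over all 24 libraries with group and batch as terms. The biological coefficient of variation was 15.4%. Standard errors came from the F statistic, and intervals are 95%. Within-batch values came from a fit with 8 means. Residual log2 CPM used a prior count of 2. Total counts of 18214719 to 35001979 per library set the precision, and counting error alone understates the spread. The fit was tested on simulated data. R 4.3.3, limma 3.58.1, DESeq2 1.42.0, Python 3.11.15 and scipy 1.17.1 were used.

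Alternatives were DESeq2, upper-quartile scaling, no filter, a stricter filter, no batch term, the 2 groups alone, each batch alone, the threshold of the study and each library left out. Genes were named by a rule: all 10 members, genes of the wider list past the threshold, the 3 genes most like each member, and opposite-strand neighbours. The members and lists were chosen with earlier results of these data known. Permutation p-values for the 45 correlations were planned and are not printed, since the libraries may share animals. Some genes of the wider list enter its counts and are not reported here by name.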

Additional observations from a re-analysis of the deposited data

Results flagged for a closer look

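In 2 of 40 sets of 6 libraries (10 genes in 4 groups), 1 library lay far from the other 5 by Dixon's test, and chance alone marks about 1 set in 20. Clock in Ctr PA was highest in library S23, at 270 CPM, where the other 5 libraries held 165 to 189 CPM, and the gap took 0.773 of the whole range. S23 also had the highest mitochondrial share of the 24, and its part in this value was not tested. Cry1 in Ctr PA was highest in library S3, at 27.7 CPM, with a gap of 0.648 of the whole range against a critical value of 0.625.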

How the results depend on the processing

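No called clock gene changed direction under any alternative run. The counts of 6 (PA in Ctr), 7 (PA in αGlu) and 8 (batch) genes each became 0 with the threshold of the study, which asks for a fold above 2. With each library left out in turn the counts ran from 6 to 7, from 7 to 7 and from 8 to 8, and stayed at 0 for the αGlu comparisons, for the difference between both PA responses and for the PA response between batches. Per3 with PA in Ctr cells was the call that moved most, past the threshold with upper-quartile scaling (adjusted p = 0.0425), the stricter filter (0.0497), DESeq2 (0.0323) and without S3, S5, S9, S18, S20 or S23 (lowest 0.0258 without S23). Per3 with PA in αGlu cells was lost without the batch term (adjusted p = 0.101, edgeR), a fit that held all 24 libraries. Other calls were lost in edgeR fits of 1 batch, which hold fewer libraries. These were Per3 with PA in αGlu cells (0.157) and Cry2 with PA in Ctr cells (0.0642) in batch 1 alone. Arntl with PA in αGlu cells was lost in batch 2 alone (0.155). The order of TPM was that of RPKM for all 10 genes. Within a library both measures differ only by a constant factor, so this equal order is no separate check of the levels. The lowest count behind a value was 203 (Dbp in S20), so depth limited the members little. No paired analysis was possible because every library carries a number of its own, so the groups share no replicate number. The study takes the groups of a replicate from cells of 1 animal or passage, but the labels do not say which libraries those are, and batch served as the only block.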
